A study of Mus musculus with 31 samples.

Results

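The values described are intronic RNA made within minutes in mouse embryonic stem cells, compared between cells depleted of Dicer (called KO in the sample titles) and wild-type cells (WT). All cells belong to the DTCM23/49 XY line, whose source is labelled a conditional Dicer mutant, so both genotypes carry the conditional gene. Loss of Dicer1 was induced with 800 nM 4-hydroxytamoxifen (4-OHT), and the labels give 8 days of treatment for KO and for WT cells alike; they do not say whether WT cells received the drug. RNA was labelled with 200 µM 4-thiouridine (4sU), a uridine analogue that cells build into new transcripts, for 10 or 15 minutes, and the labelled RNA was separated from the preexisting RNA. The comparison uses 8 of the series' 31 libraries, namely 4 labelled libraries of KO cells and 4 of WT cells, from 2 numbered cultures per genotype and 2 labelling times per culture. Intronic signal was summed per gene of the GENCODE M21 annotation (mm10), which gave 28004 genes, of which 14055 had a mean of at least 1 TPM, the unit of length-scaled share in a library, over the 8 libraries and were tested.

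Introns are transcribed with the rest of a gene and are removed by splicing, mostly while the transcript is still being made, after which they are quickly degraded. Intronic RNA caught after a short pulse of 4sU is therefore commonly read as a measure close to transcription, while exonic RNA also contains spliced transcripts on their way to the cytoplasm. Dicer cuts microRNA precursors into mature microRNAs, which bind mature mRNAs through short sequences, mostly in the last exon, and speed their decay. In embryonic stem cells the miR-290 family is known as the most abundant group of microRNAs, and loss of Dicer is known to slow proliferation and to impair differentiation.

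The cells carried the markers of embryonic stem cells in both genotypes. The exonic signal of 8 stem cell markers, all with at least 1 TPM on average, summed to 946 to 1273 TPM in the KO libraries and 1192 to 1347 TPM in the WT libraries. Of 8 primitive endoderm markers 1 averaged at least 1 TPM (sums of 4.22 to 5.32 TPM in KO and 2.65 to 6.18 TPM in WT), and of 8 fibroblast markers 1 did (1.94 to 3.86 TPM in KO and 2.12 to 5.87 TPM in WT). Of 6 trophoblast markers 1, Tfap2c, averaged at least 1 TPM (sums of 21.05 to 34.5 TPM in KO and 20.9 to 22.9 TPM in WT), and of 8 neural or mesoderm markers 2, Pax6 and Tubb3, did (14.2 to 36.6 TPM in KO and 23.3 to 28.0 TPM in WT). Some markers of other cell types were separated between genotypes at low levels. Gata3 of the trophoblast list had 0.681 to 2.00 TPM in KO and 0.030 to 0.434 TPM in WT in exons, and 0.846 to 1.42 TPM in KO and 0.101 to 0.192 TPM in WT in introns. Among neural or mesoderm markers, exonic Sox1 was 0.584 to 0.992 TPM in KO and 0.034 to 0.180 TPM in WT, and intronic Pax6 was 6.20 to 8.73 TPM in KO and 2.67 to 5.14 TPM in WT. Intronic signal of Pdgfra, Kdr and Dcn was also higher in all KO libraries, and their part in the results below was not tested. In exons Cdx2, Mesp1 and Postn were listed at 0 in all 8 libraries, and in introns Cdx2, Mesp1, Foxa2 and Lum were. In bulk RNA of this kind, fewer cells of a type and less RNA per cell cannot be told apart. TPM values keep no sequencing depth, so the depth behind each value is unknown, and the strand setting of the counting is not given in the sources used here, so overlapping genes cannot be separated.

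Dicer1 itself (chromosome 12, 104687742 to 104751952, minus strand) was lower in KO in its exons and not in its introns. Dicer1 had an exonic signal at 10 and 15 minutes of 3.52 and 3.10 TPM in KO culture 1 and 2.35 and 2.52 TPM in KO culture 2, against 7.83 and 7.34 TPM in WT culture 1 and 8.07 and 9.65 TPM in WT culture 2. All 4 KO libraries lay below all 4 WT libraries. Dicer1 had an intronic signal at 10 and 15 minutes of 3.28 and 3.29 TPM in KO culture 1 and 3.21 and 2.17 TPM in KO culture 2, against 2.56 and 2.10 TPM in WT culture 1 and 2.45 and 2.07 TPM in WT culture 2. The KO library of culture 2 at 15 minutes lay within the WT range, and the others lay above it. The intronic log2 change of 0.27 (SE 0.116, limma adjusted p = 0.157) was level with the median change over all tested genes. The exonic minus the intronic log2 change came to -1.52 (limma adjusted p = 0.684), which did not pass.

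Intronic RNA made up a larger share of the new RNA in all 4 KO libraries than in any WT library. The share was 22.8% and 21.2% in KO culture 1 after 10 and 15 minutes and 23.3% and 18.5% in KO culture 2, against 17.9% and 15.5% in WT culture 1 and 18.4% and 16.7% in WT culture 2. At each time both KO cultures lay above both WT cultures, but the KO library with the lowest share lay only narrowly above the highest WT library. Averaged over times, the share was 21.4% ± 0.812 in KO and 17.1% ± 0.580 in WT (SD, n = 2 cultures each, as for all values given as mean ± SD), a difference of 4.28 percentage points and a ratio of 1.25. An exact two-sided permutation test gave p = 0.3333, the smallest that 2 against 2 cultures allow. In preexisting RNA, where spliced transcripts dominate, the share was 5.94% ± 0.199 in KO and 4.77% ± 0.248 in WT, a ratio of 1.24 (exact permutation p = 0.3333). The signal of a library sums to a fixed total, so a larger intronic share goes with a smaller exonic one. Exons of cytosolic ribosomal protein genes held 4.19% ± 0.0964 of the new signal in KO and 5.97% ± 0.784 in WT, and pseudogenes held 20.9% ± 0.00530 in KO and 24.3% ± 0.723 in WT. Exons of the other coding genes held 42.5% ± 0.642 in KO and 42.6% ± 0.783 in WT.

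**Figure D1:**
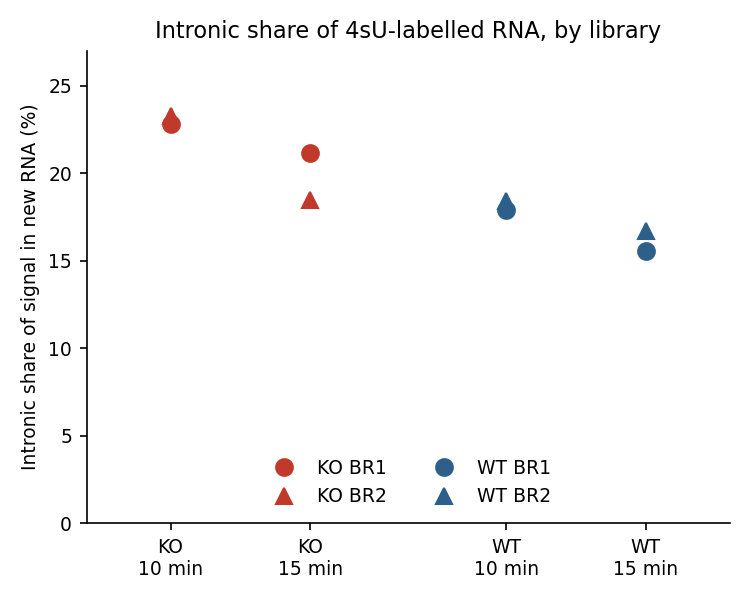
Share of the summed signal that fell on intronic rows in each of the 8 labelled libraries, in percent, with KO on the left (red) and WT on the right (blue), by labelling time; circles are culture 1 and triangles culture 2. The KO libraries lie between 18.5% and 23.3% and the WT libraries between 15.5% and 18.4%.

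Across genes, intronic signal was broadly higher in KO. The log2 change, taken on log2(TPM + 1) with the 2 times averaged per culture, had a median of 0.27 over the 14055 tested genes, a fold of 1.20, and 82.8% of genes had a positive change. The middle 90% of genes lay between -0.26 and 0.79. For the same genes the median log2 change was 0.019 in exonic signal of new RNA, 0.18 in intronic signal of preexisting RNA and 0.014 in exonic signal of preexisting RNA. The shift was seen in every culture. Relative to each gene's mean over the 4 cultures, the median deviation was 0.15 and 0.12 (log2) in the KO cultures, against -0.20 and -0.070 in the WT cultures.

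With limma and an adjusted p under 0.05, 760 genes passed: 751 (5.34% of the genes tested) were higher and 9 (0.064%) were lower in KO. This number depended strongly on how the fit was set up. With the labelled groups alone in the fit 0 passed (smallest adjusted p 0.0591; 3666 genes had an unadjusted p under 0.05), and without any 1 of the 4 cultures between 0 and 3 passed: 3 without KO culture 1, 3 without KO culture 2, 0 without WT culture 1 and 1 without WT culture 2. Once each library was centred on its median over genes, 1 gene passed (0.00711% of genes), which was Plagl1. At an unadjusted p under 0.05 the split was 4523 higher and 135 lower as deposited, but 893 higher and 1129 lower after centring. All 4 KO libraries lay above all 4 WT libraries for 3630 genes (25.8%) and below them for 97 (0.69%); after centring these numbers were 1182 (8.41%) and 1246 (8.87%). Genes called higher or lower below are those of the 760, each change is also given relative to the median change of 0.27, and of these calls only that of Plagl1 was kept after centring. The p-values rest on a spread between cultures, which the labels call biological replicates, pooled over labelled and preexisting RNA. Both fractions of a culture entered the fit as separate values although they come from the same cells.

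**Figure D2:**
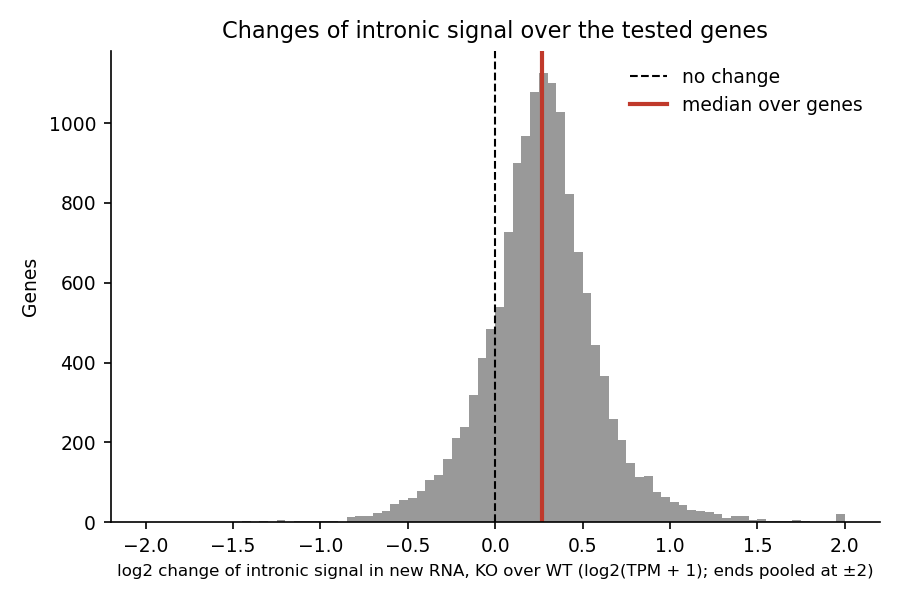
Number of tested genes (vertical axis) by log2 change of intronic signal in new RNA, KO over WT (horizontal axis, bins of 0.05, with values beyond ±2 pooled in the end bins). The bulk of the distribution lies to the right of 0 (dashed), around the median of 0.27 (red line).

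The size of the shift went with the length of the introns. Among the 2811 genes with the shortest introns, up to 5.64 kb in all, the median log2 change was 0.17 and 67.9% of genes were positive. In the middle group of the same size, from 14.6 to 29.7 kb, the median was 0.27 and 85.4% were positive. In the group with the longest introns, above 69.0 kb, it was 0.33 and 92.7% were positive. Of the 9 genes called lower, 8 were in the group with the shortest introns and 1 in the next, where 145 and 91 genes were called higher. By WT intronic level, groups of about this size differed less, with medians between 0.25 and 0.29. These are descriptions across genes, which are not independent replicates.

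Plagl1, an imprinted gene that is expressed from the paternal copy and encodes a zinc finger transcription factor, was the gene whose rise passed with and without centring. It lies on chromosome 10 (13060504 to 13131694, plus strand) and has 63.4 kb of introns. Plagl1 had an intronic signal at 10 and 15 minutes of 40.5 and 42.0 TPM in KO culture 1 and 56.9 and 34.1 TPM in KO culture 2, against 7.87 and 6.14 TPM in WT culture 1 and 8.83 and 7.74 TPM in WT culture 2. All KO libraries lay more than 3-fold above all WT libraries. The means were 43.4 ± 3.02 TPM in KO and 7.64 ± 0.908 TPM in WT, a fold of 5.67 (log2 change 2.35, SE 0.160, limma adjusted p = 0.0115; relative to the median change 2.08, adjusted p = 0.0154 after centring). Over the 23 alternative settings its log2 change ran from 1.99 to 2.48 and its adjusted p from 3e-05 to 0.27, and it passed in 12 of them. Its exonic signal in new RNA was higher by a similar factor, with 34.5 ± 7.84 TPM in KO and 7.25 ± 3.46 TPM in WT, and its intronic signal in preexisting RNA was 8.65 ± 0.932 TPM in KO and 1.54 ± 0.0442 TPM in WT. Since Plagl1 is known for a CpG-rich promoter that is methylated on the maternal copy, the RefSeq promoter (GRCm38.p6, plus strand, chr10:13090582-13090881, inside the GENCODE gene) is shown with each CG in capitals.
Plagl1 promoter: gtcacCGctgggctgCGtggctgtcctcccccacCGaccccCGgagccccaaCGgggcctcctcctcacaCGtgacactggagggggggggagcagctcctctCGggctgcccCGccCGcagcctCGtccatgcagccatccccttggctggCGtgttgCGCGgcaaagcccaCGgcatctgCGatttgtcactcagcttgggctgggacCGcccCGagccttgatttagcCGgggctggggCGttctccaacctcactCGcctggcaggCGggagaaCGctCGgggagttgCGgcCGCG
It holds 26 CG dinucleotides in 300 bases, and 16.9% of the 32851 RefSeq promoters of that length hold at least as many; no methylation was measured here.

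Within 1 Mb of Plagl1, 9 other genes were tested and 3 were called higher, where 5.34% of all genes were; this is a description of few genes and was not tested. The 9 genes had a median change of 0.25 above the median of all genes. The nearest in response was Hivep2, a large zinc finger transcription factor, chosen after its values were seen. Hivep2 had an intronic signal at 10 and 15 minutes of 4.15 and 3.36 TPM in KO culture 1 and 4.82 and 3.30 TPM in KO culture 2, against 0.915 and 0.833 TPM in WT culture 1 and 0.939 and 0.878 TPM in WT culture 2. All KO libraries lay above 3 TPM and all WT libraries below 1 TPM. Hivep2 had a log2 change of 1.37 (SE 0.0995, limma adjusted p = 0.0115, relative to the median change 1.10). Utrn, which encodes the dystrophin relative utrophin, had 4.25 ± 0.528 TPM in KO and 2.26 ± 0.311 TPM in WT. The lncRNA B230208H11Rik had 1.93 ± 0.112 TPM in KO and 0.926 ± 0.0495 TPM in WT.

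Dpp4, a peptidase of the cell surface, had the second largest rise among coding genes outside the repeat array described below. It spans chromosome 2, 62330073 to 62412231 (minus strand). Dpp4 had an intronic signal at 10 and 15 minutes of 16.1 and 16.6 TPM in KO culture 1 and 16.5 and 13.2 TPM in KO culture 2, against 3.65 and 3.81 TPM in WT culture 1 and 1.25 and 1.50 TPM in WT culture 2. The KO libraries were alike, while the WT cultures differed from each other by over 2-fold and both lay far below KO. Dpp4 had a log2 change of 2.30 (SE 0.334, limma adjusted p = 0.0228; relative to the median change 2.04, adjusted p = 0.0937 after centring), a fold of 6.11. Its exonic signal was 15.5 ± 2.00 TPM in KO and 2.24 ± 0.607 TPM in WT. Of 6 other tested genes within 1 Mb, 1 was called higher, where 5.34% of all genes were, and this count was not tested. It was Slc4a10, a bicarbonate transporter, with 2.88 ± 0.356 TPM in KO and 1.64 ± 0.0849 TPM in WT.

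The largest block of rises came from a tandem repeat at the start of chromosome 9. Of the 12 genes with the largest rises under the naming rule, 9 lie in this array. All 10 tested genes of the array were called higher, where 5.34% of all genes were, with a median log2 change of 2.47. After centring 0 of the 10 were called. Their sequences are near copies, so reads can be split among them. The 10 calls are therefore not separate observations, and the sum of the genes is the safer value. The sum of their intronic signal was 1132 and 847 TPM in KO culture 1 (10 and 15 minutes) and 1019 and 573 TPM in KO culture 2, against 195 and 184 TPM in WT culture 1 and 123 and 85.3 TPM in WT culture 2. The lowest KO library lay above the highest WT library by more than 2-fold. The culture means were 892 ± 137 TPM in KO and 147 ± 60.3 TPM in WT (SD, n = 2), a fold of 6.07.

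Gm10717 held the largest intronic signal of the array, with 372 ± 58.8 TPM in KO and 59.6 ± 23.8 TPM in WT (log2 change 2.64, SE 0.419, limma adjusted p = 0.0292; adjusted p = 0.114 after centring). Its exonic signal was 330.4 ± 47.9 TPM in KO and 54.9 ± 22.9 TPM in WT, and its intronic signal in preexisting RNA was 189.6 ± 72.1 TPM in KO and 23.7 ± 9.84 TPM in WT. The gene body (chr9:3025417-3033289, plus strand, mm10) matches itself best at a shift of 234 bases, where 80.1% of bases are equal, and 51.0% of it lies outside annotated exons. A window of that length, chr9:3026410-3026643, is shown to make visible how the annotation divides 1 repeat length into exon and intron, with annotated exon bases in capitals.
Gm10717 window: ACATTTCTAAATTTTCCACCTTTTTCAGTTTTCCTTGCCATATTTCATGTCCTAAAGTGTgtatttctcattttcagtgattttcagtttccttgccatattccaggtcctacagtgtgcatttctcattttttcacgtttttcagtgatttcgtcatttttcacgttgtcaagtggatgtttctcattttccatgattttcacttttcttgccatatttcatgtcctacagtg
Of its 234 bases 60 are annotated as exon, and the match at that shift was taken over exons and introns together. Gm26870, the lncRNA that runs over the whole array on the other strand, had 67.0 ± 9.21 TPM in KO and 10.6 ± 4.01 TPM in WT of intronic signal. Whether the reads come from this array or from copies of the repeat elsewhere cannot be told apart.

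Outside the array, Gm16505, a transcribed pseudogene on chromosome 13, was listed at 0 in all 4 WT libraries and at 5.39, 7.75, 5.08 and 3.89 TPM in the KO libraries (limma adjusted p = 0.0254). A gene listed at 0 in one group gives no fold.

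The next 12 coding genes by size of rise were chosen after their values were seen, with Spats2l at their head. Spats2l had an intronic signal at 10 and 15 minutes of 25.3 and 26.1 TPM in KO culture 1 and 19.8 and 16.4 TPM in KO culture 2, against 4.62 and 3.60 TPM in WT culture 1 and 4.51 and 4.15 TPM in WT culture 2. KO culture 1 lay above KO culture 2, and both lay above all WT libraries. Spats2l had a log2 change of 2.11 (SE 0.302, limma adjusted p = 0.0218, relative to the median change 1.85). Bmi1, a core protein of Polycomb repressive complex 1, had 7.64 ± 2.34 TPM in KO and 1.12 ± 0.0583 TPM in WT (log2 change 1.99, limma adjusted p = 0.0408), and Aspa, an enzyme that splits N-acetylaspartate, had 14.6 ± 1.85 TPM in KO and 2.87 ± 1.87 TPM in WT. Meis2, a homeobox factor of development, had 6.75 ± 2.04 TPM in KO and 1.26 ± 1.01 TPM in WT with a gap between its WT cultures, and Cald1, which encodes the actin-binding protein caldesmon, had 40.8 ± 2.60 TPM in KO and 11.6 ± 0.341 TPM in WT. Another of the 12, Emp1, encodes an epithelial membrane protein. Emp1 had an intronic signal at 10 and 15 minutes of 6.13 and 6.71 TPM in KO culture 1 and 8.66 and 7.13 TPM in KO culture 2, against 1.33 and 1.03 TPM in WT culture 1 and 0.843 and 1.03 TPM in WT culture 2. The lowest KO library lay more than 4-fold above the highest WT library.

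The remaining 6 of the 12 include enzymes and signalling proteins. Pla2g7, which degrades platelet-activating factor, had 9.42 ± 0.318 TPM in KO and 2.03 ± 0.582 TPM in WT, and its replicates were among the closest of the 12 (log2 change 1.79, SE 0.157, limma adjusted p = 0.0115). Gsto1, a glutathione transferase, had 17.8 ± 3.90 TPM in KO and 4.18 ± 0.309 TPM in WT, and Dusp14, a dual specificity phosphatase, had 29.7 ± 6.33 TPM in KO and 7.41 ± 1.08 TPM in WT. Xaf1, which binds the apoptosis inhibitor XIAP, had 16.7 ± 5.27 TPM in KO and 3.80 ± 2.55 TPM in WT, and AA467197 had 9.28 ± 1.01 TPM in KO and 1.51 ± 0.685 TPM in WT. Phlda1 was uneven, since its intronic signal of 10.99 TPM in KO culture 1 at 10 minutes stood against 0.863 to 2.36 TPM in the other KO libraries and 0 to 0.269 TPM in WT. Exonic signal in new RNA was higher in KO for all of these; for Emp1 it was 12.3 ± 3.87 TPM in KO and 2.20 ± 0.305 TPM in WT and for Cald1 144 ± 25.9 TPM in KO and 44.4 ± 6.03 TPM in WT. Of the 12, 11 had a RefSeq promoter, with a median of 13 CG dinucleotides against 21 over the 10067 tested genes that had one.

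**Figure D3:**
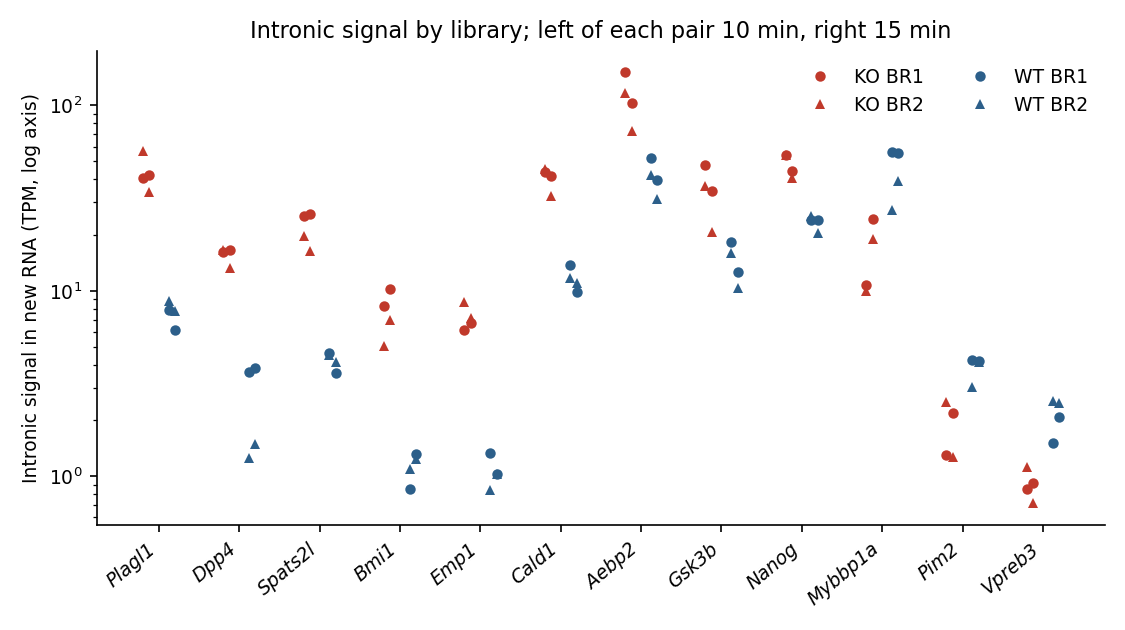
Intronic signal in new RNA (TPM, logarithmic axis) of 12 genes in each of the 8 labelled libraries, KO in red to the left of WT in blue within each gene; within a colour, points on the left are 10 minutes and those on the right 15 minutes. The first 9 genes have all KO points above all WT points, and the last 3 have all KO points below all WT points; of the last 3, Mybbp1a did not pass the test.

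Of the 9 genes called lower in KO, 4 had all KO libraries below all WT libraries and at least 2 TPM in WT. Pim2, a serine/threonine kinase that promotes growth and survival, was one of them. Pim2 had an intronic signal at 10 and 15 minutes of 1.30 and 2.19 TPM in KO culture 1 and 2.51 and 1.27 TPM in KO culture 2, against 4.24 and 4.16 TPM in WT culture 1 and 3.02 and 4.13 TPM in WT culture 2. The highest KO library lay below the lowest WT library. Pim2 had a log2 change of -0.82 (SE 0.169, limma adjusted p = 0.0446, relative to the median change -1.08). Vpreb3, known as a pre-B cell gene, had 0.900 ± 0.0262 TPM in KO and 2.16 ± 0.508 TPM in WT (limma adjusted p = 0.0406), and Tomm40l, a relative of the mitochondrial import channel Tomm40, had 0.617 ± 0.125 TPM in KO and 2.11 ± 0.314 TPM in WT (limma adjusted p = 0.0261), with both KO libraries of 10 minutes listed at 0. Gm8325, a pseudogene with 0.11 kb of intron, was listed at 0 in all KO libraries and at 1.65 to 9.61 TPM in WT.

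Further genes with separated libraries and the smallest p among falls did not pass. Platr14, a noncoding RNA associated with pluripotent cells, had the highest level of them. Platr14 had an intronic signal at 10 and 15 minutes of 69.3 and 70.7 TPM in KO culture 1 and 76.8 and 65.1 TPM in KO culture 2, against 109 and 109 TPM in WT culture 1 and 121 and 114 TPM in WT culture 2. The cultures of each genotype were close to each other and the genotypes lay far apart, yet the limma adjusted p was 0.0637 (log2 change -0.68, SE 0.174, relative to the median change -0.95). Slc16a3, a lactate exporter, had 5.35 ± 1.11 TPM in KO and 12.2 ± 3.31 TPM in WT (limma adjusted p = 0.0676), and Mybbp1a, a nucleolar protein that binds Myb, had 16.1 ± 2.23 TPM in KO and 44.4 ± 16.0 TPM in WT (adjusted p = 0.0581). Calca, Ap1s3, Ptprtos and Gm4691 had adjusted p-values of 0.0680, 0.0707, 0.0679 and 0.0536.

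Polycomb and histone demethylase genes had the highest median of the gene lists with at least 6 tested members. Of 14 tested, 1 was called higher and 14 had a positive change, 13 of them above the median of all genes. Over all genes 5.34% were called higher and 82.8% were positive. The median of the list was 0.67, or 0.40 above the median change. The member that passed was Aebp2, an accessory subunit of Polycomb repressive complex 2. Aebp2 had an intronic signal at 10 and 15 minutes of 151 and 103 TPM in KO culture 1 and 117 and 72.6 TPM in KO culture 2, against 52.0 and 39.4 TPM in WT culture 1 and 42.1 and 31.4 TPM in WT culture 2. KO culture 1 lay above KO culture 2 at both times, and the lowest KO library lay above the highest WT library. Aebp2 had a log2 change of 1.38 (SE 0.260, limma adjusted p = 0.0385). Rnf2, the ubiquitin ligase of complex 1, had a log2 change of 0.84, Kdm6a, which removes methyl groups from histone H3 lysine 27, 0.82, and Ezh2, the methyltransferase of complex 2, 0.48; these did not pass.

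Among naive pluripotency genes 2 of 15 tested were called higher and 0 lower (5.34% and 0.064% over all genes). Of the 15, 12 were positive, where 82.8% of all genes were, and 8 lay above and 7 below the median change (list median 0.30, or 0.032 above it). Nanog, a core transcription factor of the naive state, was one. Nanog had an intronic signal at 10 and 15 minutes of 54.1 and 44.4 TPM in KO culture 1 and 54.2 and 40.4 TPM in KO culture 2, against 24.2 and 24.1 TPM in WT culture 1 and 25.2 and 20.6 TPM in WT culture 2. Each KO library lay at least 1.5-fold above every WT library. Nanog had a log2 change of 1.00 (SE 0.169, limma adjusted p = 0.0321, relative to the median change 0.73), whereas its exonic signal differed less, with 175 ± 40.7 TPM in KO and 141 ± 31.5 TPM in WT. Klf5 was the other, with 10.5 ± 1.18 TPM in KO and 5.77 ± 0.0474 TPM in WT. Pou5f1, which encodes Oct4, had 14.9 ± 0.109 TPM in KO and 15.6 ± 1.19 TPM in WT (log2 change -0.075, limma adjusted p = 0.854), and Tbx3 had 22.6 ± 6.04 TPM in KO and 10.1 ± 3.35 TPM in WT without passing (adjusted p = 0.138). Of 6 primed epiblast genes 0 passed and 2 were positive, with a median of -0.11. Lef1 in this list, a Wnt-responsive transcription factor, had 4.92 ± 1.65 TPM in KO and 9.20 ± 3.89 TPM in WT (limma adjusted p = 0.145), and the DNA methyltransferase Dnmt3b had 26.2 ± 5.58 TPM in KO and 39.6 ± 5.84 TPM in WT (adjusted p = 0.152).

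In the Wnt pathway, Gsk3b marks β-catenin for destruction and TCF/LEF factors act with β-catenin on DNA. Of its 14 tested genes 2 were called higher and 10 were positive (median 0.30, or 0.034 above the median change). Over all genes 5.34% were called higher and 82.8% were positive. Gsk3b had an intronic signal at 10 and 15 minutes of 47.5 and 34.5 TPM in KO culture 1 and 36.7 and 20.9 TPM in KO culture 2, against 18.3 and 12.7 TPM in WT culture 1 and 15.9 and 10.4 TPM in WT culture 2. All KO libraries lay above all WT libraries, although KO culture 2 at 15 minutes came close to WT culture 1 at 10 minutes. Gsk3b had a log2 change of 1.20 (limma adjusted p = 0.0376). Tcf7l2, a TCF factor, had 41.5 ± 4.29 TPM in KO and 17.0 ± 4.61 TPM in WT (log2 change 1.26, adjusted p = 0.0442). The other TCF/LEF members did not pass and had log2 changes of -0.20 for Tcf7, -0.049 for Tcf7l1 and -0.75 for Lef1. In the TGF-beta, FGF and MAPK list 1 of 20 was called higher (18 positive, median 0.46), which was Dusp6, a phosphatase of ERK, whose libraries overlapped. Smad2, Smad3 and Smad7 had log2 changes of 0.52, 0.49 and 0.54 and did not pass, and Lefty1, a Nodal antagonist, had -0.95 (limma adjusted p = 0.105).

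Among cell cycle genes, of 17 G1/S regulators 3 were called higher and 0 lower (5.34% and 0.064% over all genes). Of the 17, 15 were positive, where 82.8% of all genes were, and 9 lay above and 8 below the median change (list median 0.29). Ccnd2, which encodes cyclin D2, had the largest change. Ccnd2 had an intronic signal at 10 and 15 minutes of 7.62 and 10.0 TPM in KO culture 1 and 11.7 and 8.51 TPM in KO culture 2, against 4.91 and 3.12 TPM in WT culture 1 and 2.43 and 3.17 TPM in WT culture 2. The lowest KO library lay more than 1.5-fold above the highest WT library. Ccnd2 had a log2 change of 1.26 (SE 0.165, limma adjusted p = 0.0185). Its kinase partner Cdk6 had 20.2 ± 2.02 TPM in KO and 10.1 ± 1.65 TPM in WT, and the retinoblastoma gene Rb1 had 28.8 ± 0.847 TPM in KO and 15.3 ± 0.702 TPM in WT, whereas Ccnd1, which encodes cyclin D1, had a log2 change of -0.39 and did not pass. Hmga2, a chromatin protein known as a let-7 target, was the 1 of 8 genes of the MYC, LIN28 and let-7 list that was called, with 2.68 ± 0.222 TPM in KO and 0.720 ± 0.210 TPM in WT; Lin28a had a log2 change of -0.55 and Mycn of -0.32, neither past the test.

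Of 17 tested genes of the p53 pathway 2 were called higher (5.34% over all genes), with a list median of 0.41 (0.14 above the median change). All 17 had a positive change, as had 82.8% of all genes, and 12 lay above and 5 below the median change. The 2 called were Perp, a membrane protein induced by p53, with 1.66 ± 0.0361 TPM in KO and 0.467 ± 0.0230 TPM in WT, and the kinase gene Plk2, with 2.04 ± 0.0467 TPM in KO and 1.00 ± 0.255 TPM in WT. Mdm2, the ubiquitin ligase of p53, had 85.1 ± 11.5 TPM in KO and 47.4 ± 3.49 TPM in WT (limma adjusted p = 0.0585) and Trp53 a log2 change of 0.35; neither passed. Of 13 apoptosis genes 1 was called, Pmaip1, which encodes the BH3 protein Noxa, with 4.44 ± 0.156 TPM in KO and 1.76 ± 0.204 TPM in WT, and Bcl2l1 and Bcl2l11 had log2 changes of 0.88 and 0.70 without passing. Of 10 interferon and double-stranded RNA response genes 1 was called, Oas1a, with 2.99 ± 0.324 TPM in KO and 1.62 ± 0.180 TPM in WT, and the list median of 0.29 lay 0.020 above the median change.

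Of 12 basement membrane and mesenchymal genes 4 were called higher (5.34% over all genes), but 6 of the 12 lay below the median change, and the list median of 0.32 was 0.055 above it. Vim, which encodes the intermediate filament vimentin, was one. Vim had an intronic signal at 10 and 15 minutes of 16.5 and 19.7 TPM in KO culture 1 and 22.3 and 19.7 TPM in KO culture 2, against 7.13 and 5.14 TPM in WT culture 1 and 9.92 and 10.1 TPM in WT culture 2. The genotypes did not overlap in any library. Vim had a log2 change of 1.21 (SE 0.246, limma adjusted p = 0.0426). Nid1, a basement membrane linker, had 4.38 ± 0.992 TPM in KO and 1.40 ± 0.440 TPM in WT, Sparc, a matrix protein, had 20.1 ± 0.0148 TPM in KO and 9.62 ± 0.632 TPM in WT, and Cdh2, which encodes N-cadherin, had 3.00 ± 0.0297 TPM in KO and 1.43 ± 0.294 TPM in WT. Lamb1, Fn1 and Zeb2 had log2 changes of -0.26, 0.16 and 0.034 and did not pass. Vim and Sparc are also made by fibroblasts, of whose 8 markers 7 averaged under 1 TPM in exons, as given above; their part in these rises was not tested.

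In the small RNA and RNA processing lists the called members were 0 of 12, 1 of 17, 1 of 18, 0 of 20 and 2 of 21, near the 5.34% called higher over all genes. Of 12 microRNA machinery genes 0 were called (median 0.25, or -0.017 relative to the median change). At an unadjusted p under 0.05, limma gave 2 of them, where it gave 4658 of all 14055 genes. Ago1, an Argonaute, had 13.5 ± 0.275 TPM in KO and 9.21 ± 2.56 TPM in WT (limma adjusted p = 0.216). Tnrc6a, which links Argonaute to deadenylases, had 6.20 ± 0.238 TPM in KO and 4.31 ± 0.113 TPM in WT (limma adjusted p = 0.0838). Drosha, which makes the precursors that Dicer cuts, had 47.7 ± 5.38 TPM in KO and 42.2 ± 3.63 TPM in WT. Of 17 microRNA host genes 1 was called higher, Pank1, with 3.43 ± 0.264 TPM in KO and 1.75 ± 0.160 TPM in WT, and Dleu2, host of the miR-15a and miR-16-1 genes, had 81.0 ± 4.46 TPM in KO and 40.8 ± 0.337 TPM in WT (adjusted p = 0.0509). Of 18 deadenylation and decay genes 1 was called, Cnot6l, a deadenylase, with 52.4 ± 7.75 TPM in KO and 26.5 ± 1.88 TPM in WT. Of 20 splicing and nuclear decay genes 0 were called (18 positive, median 0.31). An unadjusted p under 0.05 with limma was reached by 4 of the 20 and by 4658 of all 14055 genes. The nuclear exonuclease gene Xrn2 had 40.8 ± 11.3 TPM in KO and 22.1 ± 6.13 TPM in WT. Of 21 elongation genes 2 were called, Aff1 and Ell2, both parts of the super elongation complex, the first with 18.7 ± 1.04 TPM in KO and 10.4 ± 1.05 TPM in WT; the list median of 0.22 was -0.046 relative to the median change.

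Some lists had a median near or below that of all genes. Of 10 DNA methylation and TET genes 1 was called, Mbd2, with a list median of 0.16, which is -0.11 relative to the median change. Of 11 imprinted genes 2 were called, Plagl1 and Impact, with a list median of 0.34. Over all genes 5.34% were called higher. Peg10, another paternally expressed gene, had 9.43 ± 3.17 TPM in KO and 3.54 ± 1.35 TPM in WT (limma adjusted p = 0.0535). Of 13 nuclear long noncoding RNAs 0 were called. By limma 2 of the 13 had an unadjusted p under 0.05, where 4658 of all 14055 genes had. The list median was 0.059, or -0.21 relative to the median change, so that its sign depends on the scaling. Neat1, the scaffold of paraspeckles, had 3.42 ± 0.182 TPM in KO and 0.879 ± 0.904 TPM in WT (limma adjusted p = 0.0720), and Malat1 2477 ± 17.6 TPM in KO and 2379 ± 321 TPM in WT; both have 0 kb of intron once all exons of GENCODE M21 are merged, although the deposited table holds intronic rows for them. Few members of the immediate early (2 of 14) and of the two-cell-like list (1 of 12) passed the filter on low values, and 0 of these were called.

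**Figure D4:**
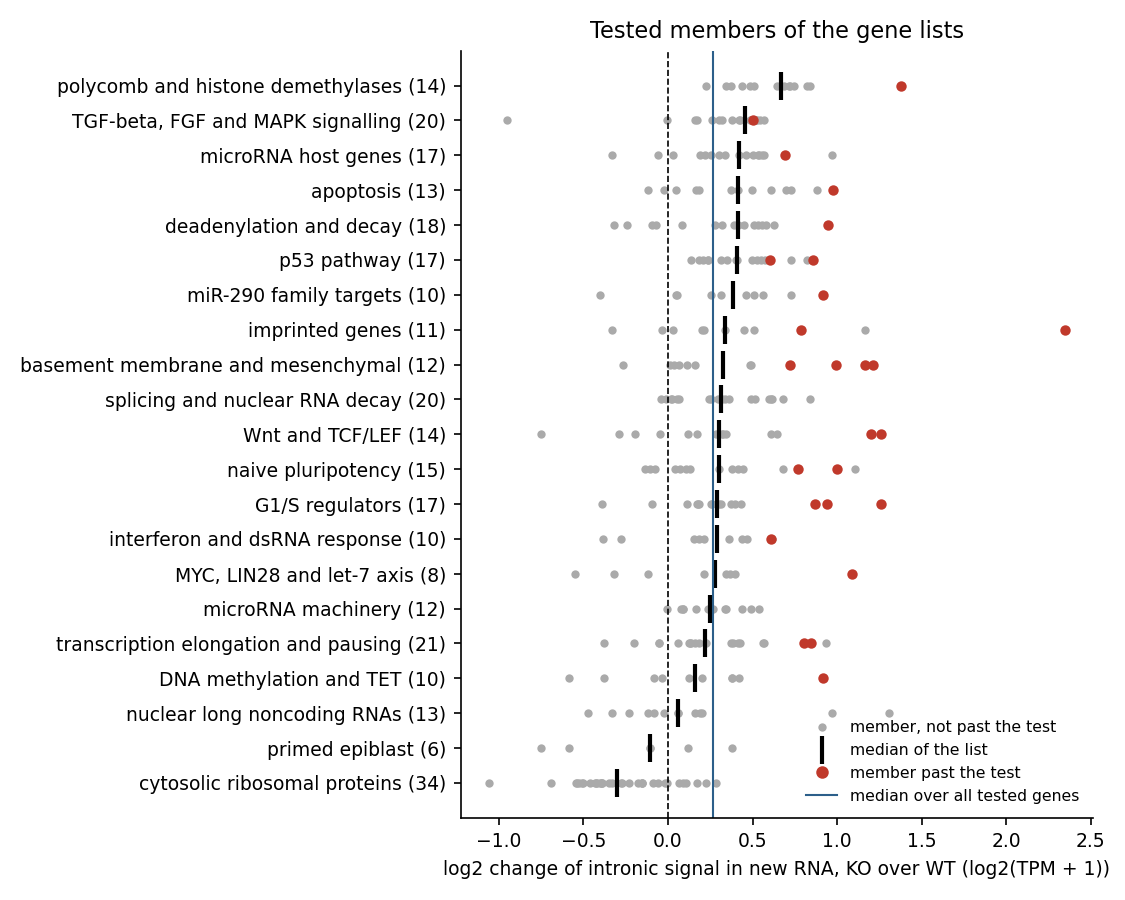
Log2 change of intronic signal in new RNA, KO over WT, for the tested members of the 21 gene lists with at least 6 of them (number tested in brackets), ordered by median; grey points did not pass the test, red points passed, the black bar is the list's median, the dashed line is 0 and the blue line the median over all tested genes (0.27). Cytosolic ribosomal protein genes lie at the bottom with a median of -0.30, and Polycomb and histone demethylase genes at the top with 0.67.

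Cytosolic ribosomal protein genes, which encode the subunits of the ribosome, had a negative median, unlike the genes as a whole. Of 34 tested members of the list 6 were positive and 33 lay below the median change, with a median of -0.30, or -0.57 relative to the median change. No member was called in either direction with limma. An unadjusted p under 0.05 was found for 2 of the 34, against 4658 of all 14055 genes. Of the 34, 2 had all KO libraries below all WT libraries, as had 0.69% of all genes. After centring 10 of the 34 did, as did 8.87% of all genes. Rps3, a protein of the small subunit, was one of the 2 separated before centring. Rps3 had an intronic signal at 10 and 15 minutes of 11.4 and 13.2 TPM in KO culture 1 and 12.3 and 18.1 TPM in KO culture 2, against 18.6 and 19.4 TPM in WT culture 1 and 20.1 and 18.2 TPM in WT culture 2. All KO libraries lay below all WT libraries, with KO culture 2 at 15 minutes only narrowly so. Its log2 change was -0.46 (SE 0.263, limma adjusted p = 0.255). Rplp0, of the large subunit's stalk, had 5.17 ± 0.154 TPM in KO and 7.07 ± 0.696 TPM in WT and was separated too. Rpl3 had 77.1 ± 14.3 TPM in KO and 77.2 ± 2.02 TPM in WT.

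Extending the list to all 80 tested genes named Rpl or Rps gave 16 positive and 77 below the median change, with a median of -0.23. Introns of these genes often hold small nucleolar RNA genes or overlap other genes. The 33 with no overlapping annotated gene had a median of -0.27 and the 47 with one -0.23. The 1 gene called higher was Rps27l, a paralogue known as a p53 target, with 38.5 ± 0.837 TPM in KO and 21.9 ± 1.88 TPM in WT. The exonic change of the 80 had a median of -0.56, and 9 of them had an exonic change above the intronic one.

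Exonic and intronic changes were set against each other gene by gene to separate changes shared by both from those in one of them. Over 11309 genes with both signals the exonic minus the intronic log2 change had a median of -0.22, and 2295 genes had a higher exonic change. With limma 0 genes passed (0% of the genes tested; 787 had an unadjusted p under 0.05, 66 with the exonic change higher and 721 with it lower). Targets named for the miR-290 family, whose mature forms Dicer makes, were examined in both signals. The family's main members share a seed, bases 2 to 8, shown in capitals (RefSeq, GRCm38.p6, chromosome 7, plus strand).
miR-291a-3p: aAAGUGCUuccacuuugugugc
miR-294-3p: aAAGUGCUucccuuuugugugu
miR-295-3p: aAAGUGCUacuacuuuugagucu
Of 13 listed targets 10 were tested, and in 8 of the 10 the exonic change exceeded the intronic one, with a median difference of 0.10.

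Lats2, a kinase of the Hippo pathway, and Cdkn1a, the cell cycle inhibitor p21, showed the widest gaps among the targets. Lats2 had an intronic signal at 10 and 15 minutes of 46.4 and 87.5 TPM in KO culture 1 and 45.0 and 69.0 TPM in KO culture 2, against 70.3 and 101 TPM in WT culture 1 and 72.5 and 76.0 TPM in WT culture 2. These intronic values overlapped between genotypes, with a log2 change of -0.40 (limma adjusted p = 0.230), and 3 annotated genes overlap Lats2. Its exonic signal was 9.32 ± 1.01 TPM in KO and 3.20 ± 0.0905 TPM in WT, an exonic minus intronic log2 change of 1.67 (SE 0.300, limma adjusted p = 0.684). Cdkn1a had an intronic signal at 10 and 15 minutes of 10.9 and 13.1 TPM in KO culture 1 and 20.7 and 22.7 TPM in KO culture 2, against 10.9 and 6.65 TPM in WT culture 1 and 18.2 and 19.8 TPM in WT culture 2. The intronic values of Cdkn1a followed the culture number more than the genotype, with the higher values in culture 2 of both. Its exonic signal was 63.6 ± 9.83 TPM in KO and 24.6 ± 6.21 TPM in WT (difference 1.02, adjusted p = 0.684).

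The other targets differed less between exons and introns. Mbd2, which binds methylated CpG, was the 1 of 10 called in intronic signal, where 5.34% of all genes were called higher. Mbd2 had an intronic signal at 10 and 15 minutes of 11.5 and 11.3 TPM in KO culture 1 and 15.2 and 10.3 TPM in KO culture 2, against 6.33 and 4.97 TPM in WT culture 1 and 6.68 and 5.61 TPM in WT culture 2. The groups did not overlap, with KO above 10 TPM and WT below 7 TPM. Mbd2 had a log2 change of 0.92 (SE 0.155, limma adjusted p = 0.0321), and the exonic signal of 14.8 ± 0.840 TPM in KO and 6.84 ± 0.224 TPM in WT gave nearly the same change (difference 0.096). Rbl2, a pocket protein, had an intronic signal of 16.3 ± 1.85 TPM in KO and 13.7 ± 3.49 TPM in WT and an exonic signal of 21.8 ± 0.165 TPM in KO and 14.0 ± 5.33 TPM in WT. Ei24, a p53-induced gene, had 33.3 ± 3.57 TPM in KO and 20.0 ± 4.43 TPM in WT and Casp2, a caspase, 29.7 ± 4.55 TPM in KO and 28.4 ± 1.18 TPM in WT in introns. Arid4b and Akt1 were the ones with an exonic change below the intronic one (differences -0.25 and -0.16). The intronic median of the 10 was 0.39, or 0.12 above the median change, and the median of their exonic changes was 0.69.

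**Figure D5:**
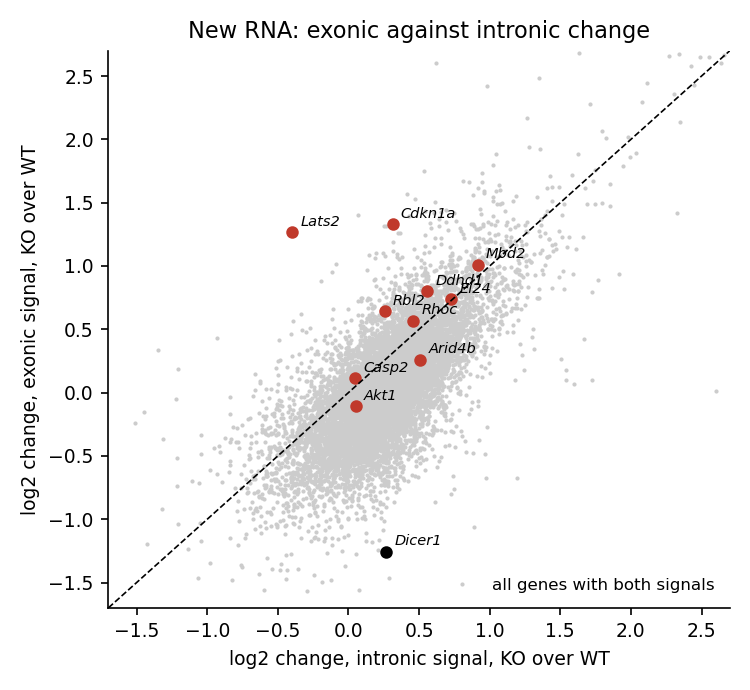
Log2 change in new RNA, KO over WT, of exonic signal (vertical axis) against intronic signal (horizontal axis); grey dots are the genes with both signals that lie within the axes, red points the 10 tested miR-290 targets, the black point Dicer1 and the dashed line equal change. Lats2 and Cdkn1a lie above the line, with differences of 1.67 and 1.02, and Dicer1 below it with -1.52.

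Outside the named targets, the widest gaps under the naming rule were these, and none passed. The exonic change was the higher one for Anxa1, which encodes annexin A1, with an exonic signal of 10.8 ± 3.35 TPM in KO and 1.38 ± 1.20 TPM in WT and an intronic signal of 2.38 ± 0.158 TPM in KO and 0.709 ± 0.164 TPM in WT, and for Rnf213, a large ubiquitin ligase, with 11.4 ± 0.627 TPM in KO and 5.40 ± 1.49 TPM in WT in exons and 4.92 ± 0.278 TPM in KO and 5.72 ± 2.79 TPM in WT in introns. The exonic change was the lower one for 1700037H04Rik, with 3.84 ± 2.57 TPM in KO and 11.5 ± 2.38 TPM in WT in exons and 5.68 ± 1.89 TPM in KO and 5.59 ± 2.52 TPM in WT in introns, and for Gm26510, with differences of -1.64 and -1.13.

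The intronic change in new RNA was finally compared with that in preexisting RNA. With limma 0 of 14055 genes passed (0% of the genes tested; 708 had an unadjusted p under 0.05, 570 with a higher change in new RNA and 138 with a lower one). That split depended on the settings: it was 198 higher and 206 lower with a pseudocount of 0.1 TPM and 299 higher and 264 lower without WT culture 1, so no direction is read from it. Nnmt, nicotinamide N-methyltransferase, had one of the widest gaps. Nnmt had an intronic signal at 10 and 15 minutes of 2.63 and 3.13 TPM in KO culture 1 and 2.63 and 2.28 TPM in KO culture 2, against 0.382 and 0.402 TPM in WT culture 1 and 0.275 and 0.305 TPM in WT culture 2. In preexisting RNA its intronic signal was 0.160 ± 0.156 TPM in KO and 0.0328 ± 0.0343 TPM in WT, below the pseudocount of 1 TPM, so that the log2 scale compresses any change there. The difference between fractions was 1.29 (SE 0.167, limma adjusted p = 0.463). Irs2, an adaptor of the insulin receptor, had 2.17 ± 0.290 TPM in KO and 0.351 ± 0.0184 TPM in WT in new RNA and 0.154 ± 0.115 TPM in KO and 0.0220 ± 0.0262 TPM in WT in preexisting RNA. In the other direction stood Polr2e, a shared subunit of the RNA polymerases, with 4.22 ± 1.41 TPM in KO and 7.92 ± 3.10 TPM in WT in new RNA and 2.64 ± 0.258 TPM in KO and 1.18 ± 0.0240 TPM in WT in preexisting RNA (difference -1.48, adjusted p = 0.840).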

How the data were processed

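Labelled and preexisting 4sU RNA of 2 KO and 2 WT cultures was analysed; small RNA libraries were not used here. Per the labels' protocols, libraries came from 10 ng of DNase-treated RNA (Ovation RNA-Seq), STAR 2.5.0 first removed ribosomal reads and then placed what remained on introns and exons, and RSEM estimated abundances; the build, per the submitters' processing notes, is mm10. The annotation release and the strand setting are not given in the sources used here. The authors deposited one table of values named TPM, but each column sums to 10000000 over exonic and intronic rows, so they are treated as a deposited signal, 10 times TPM; the planned tests assumed TPM, and values were divided by 10. RSEM spreads reads among similar transcripts, which touches repeats and pseudogenes.

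Of 91702 intronic rows 89935 matched a transcript of GENCODE M21 and were summed per gene (2.27 to 2.62% of the intronic signal of a labelled library was unmatched). Both labelling times were averaged within each culture. Genes with a mean of at least 1 TPM entered limma 3.58.1, with a trend, as log2(TPM + 1), a scale that understates changes of low genes, in 1 model of KO and WT labelled and preexisting groups, with Benjamini-Hochberg adjustment and a threshold of 0.05. All tests were two-sided, and the procedure was tested on simulated data. No depth can be read from TPM, so no counting interval is given. Replicate pairs of a group differed by a median of 0.18 to 0.25 (log2) per gene.

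Named genes were Dicer1, the members of 27 gene lists, and the 12 largest rises and falls among called genes whose higher genotype averaged 2 TPM or more and whose libraries did not overlap, filled up with the smallest p where fewer passed; 5 per direction were named likewise for the exonic minus intronic and new minus preexisting differences; other genes were named after their values were seen. Members and lists were chosen with earlier results of these data known. Sequences are from RefSeq and the GRCm38.p6 genome. R 4.3.3, Python 3.11.15, numpy 2.4.6, pandas 2.3.3, scipy 1.17.1 and matplotlib 3.10.9 were used. Alternatives concerned the pseudocount, the filter, the scaling, the groups fitted, the labelling times, left-out cultures, overlapping genes and a replicate block. Some genes that the naming rule or the lists hold are not reported here.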

Additional observations from a re-analysis of the deposited data

How the results depend on the processing

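The direction of 16 named genes (Plagl1, Dpp4, Gm10717 and others) was kept in all alternatives that could be computed for them, and 94 such values stayed past the threshold while 275 did not. The count of 760 genes was 1 with a pseudocount of 0.1 TPM, 192 with 0.5, 161 with a filter of 5 TPM, 11 when rescaled to the intronic sum, 1 when centred, 0 with labelled groups only, 66 at 10 minutes, 123 at 15 minutes, 3425 with each library separate and 242 of 5714 genes without an overlapping gene; it ranged from 0 to 3 without 1 culture. Among alternatives added after seeing the data, centring gave 0 with labelled groups only, 13 at 10 minutes, 5 at 15 minutes and 0 to 1 without 1 culture. The median change of 0.27 was 0.13 without a filter, 0.018 when rescaled, and 0.20 to 0.34 without 1 culture. When centred it was -0.013, also with labelled groups only or a block, 0.0081 at 10 minutes, -0.021 at 15 minutes and -0.041, 0.015, 0.023 and -0.044 without KO culture 1, KO culture 2, WT culture 1 and WT culture 2. The count of genes with unlike intronic changes in new and preexisting RNA was 1 without a filter, 4 at 10 minutes, 1 at 15 minutes and 0 to 2 without 1 culture. The intronic share difference of 4.28 points was 3.71 to 4.86 without 1 culture, and the count for exonic against intronic changes was 0 throughout. The cause was not tested for any of these.

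With a replicate block on the culture number, 1503 genes passed, and 108 when also centred. Deviations of same-numbered cultures correlated at 0.49 in labelled and 0.18 in preexisting RNA, but with 2 pairs and no label of a shared batch the numbers are not taken to pair the cultures. Where leaving out a culture left 1 in a group, that culture is assumed to vary like the others. Values near 1 TPM rest on few reads at an unknown depth.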

Other observations

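Further genes called higher, none of which passed after centring, were chosen after their values were seen. Glis3, a zinc finger transcription factor, had 16.3 ± 0.565 TPM in KO and 4.59 ± 0.594 TPM in WT (log2 change 1.62, SE 0.146, limma adjusted p = 0.0115; adjusted p = 0.0653 after centring). Glis3 had an intronic signal at 10 and 15 minutes of 15.3 and 16.4 TPM in KO culture 1 and 19.7 and 13.7 TPM in KO culture 2, against 5.41 and 4.61 TPM in WT culture 1 and 4.31 and 4.03 TPM in WT culture 2. Every KO library lay more than 2-fold above every WT library. Smarca2, an ATPase of the SWI/SNF chromatin remodelling complex, had 6.36 ± 0.528 TPM in KO and 2.02 ± 0.240 TPM in WT, and its exonic signal was 63.2 ± 14.5 TPM in KO and 15.8 ± 3.12 TPM in WT. Rnf128, an X-linked ubiquitin ligase, had 5.83 ± 0.372 TPM in KO and 1.50 ± 0.00813 TPM in WT. Pou6f1, a POU domain factor, had 7.31 ± 0.349 TPM in KO and 2.54 ± 0.491 TPM in WT. Among genes within 1 Mb of Emp1, 16 others were tested and 2 were called higher, where 5.34% of all genes were. Within 1 Mb of Glis3, 1 of 12 others was called higher. These counts describe few genes and were not tested. The 2 near Emp1 were Gprc5a, an orphan receptor, with 2.38 ± 0.0958 TPM in KO and 0.765 ± 0.00601 TPM in WT, and Dusp16, a phosphatase of JNK and p38, with 36.4 ± 4.37 TPM in KO and 16.3 ± 0.290 TPM in WT.

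The median log2 change of intronic signal differed between chromosomes, from 0.19 on chromosomes 8 and 17 and 0.20 on chromosome 7 to 0.33 on chromosome 3 (653, 610, 1019 and 760 genes). On the X chromosome it was 0.30 over 550 genes. By gene class the medians were 0.27 for 11858 coding genes, 0.27 for 595 lincRNAs, 0.24 for 683 antisense genes and 0.33 for 205 processed pseudogenes. These medians are descriptions over genes and were not tested.

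The gene called higher with the largest fitted change, the processed pseudogene Gm29396, did not meet the naming rule because its libraries overlapped. Its intronic signal at 10 and 15 minutes was 50.9 and 90.8 TPM in KO culture 1 and 25.1 and 18.9 TPM in KO culture 2, against 0 and 0 TPM in WT culture 1 and 0 and 33.8 TPM in WT culture 2. One WT library thus lay above both libraries of KO culture 2, and all libraries of preexisting RNA were listed at 0.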
